A study of Homo sapiens with 18 samples.

Results

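The genes described here are the 9 autosomal genes of the zinc-dependent histone deacetylases, HDAC1, HDAC2, HDAC3, HDAC4, HDAC5, HDAC7, HDAC9, HDAC10 and HDAC11, out of 19103 autosomal protein-coding genes. A peak was assigned to a member when it shared at least 1 bp with the gene body (GENCODE release 44, hg38) extended by 10 kb on either side. In total, 511 of the 506359 peaks in 12 peak lists met this rule, and they formed 53 of 55382 H3K27ac regions and 74 of 69985 CTCF regions, a region being the merged interval of peaks that overlap between libraries. The study profiled HEK293T, an established cell line of human embryonic kidney origin that carries the SV40 large T antigen, by ChIP-seq with antibodies against H3K27ac (histone H3 acetylated at lysine 27, a mark of active promoters and enhancers) and against CTCF (a DNA-binding protein at chromatin loop anchors). The control group (CTRL) was left untreated and the VPA group received 1 mM valproic acid for 1 day, with 3 libraries per antibody and group. Both groups were bulk cultures of the same line, and 6 input libraries were not analysed here. The genes of the X-linked members HDAC6 and HDAC8 were not analysed here.

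Histone deacetylases remove acetyl groups from lysines of histones and other proteins, and the zinc-dependent enzymes are grouped by sequence. Class I members (HDAC1, HDAC2, HDAC3) are nuclear and work inside co-repressor complexes, class IIa members (HDAC4, HDAC5, HDAC7, HDAC9) shuttle between nucleus and cytoplasm and bind MEF2 transcription factors, HDAC10 (class IIb) deacetylates polyamines, and HDAC11 is the class IV enzyme. Valproic acid is a short-chain fatty acid that inhibits histone deacetylases, mainly those of class I, so these loci encode the targets of the drug and their relatives. The question was whether the chromatin at these genes differed after treatment.

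The lists held 26299 to 29799 H3K27ac peaks in CTRL and 38441 to 40992 in VPA, and 36469 to 58782 CTCF peaks. Read totals are not part of peak lists. The background coverage recovered from the lists, which scales with sequencing depth, was 3.51 to 3.95 fragments in the 12 libraries. Replicate 1 stood apart in both antibodies and both groups. Its median fold enrichment (fragments over the summit relative to the local background) at regions found in all 6 libraries of an antibody was 7.52 to 7.63 for H3K27ac and 12.4 to 14.98 for CTCF, against 15.3 to 17.2 and 42.5 to 45.3 in replicates 2 and 3. The counts below are therefore also given without replicate 1. Of 7 genes chosen as marks of this line, VIM, CDH2, KRT8 and KRT18 carried H3K27ac at the gene start in 6 of 6 libraries and NES in 5, while PAX2 and LIN28B did in none. Of the marker genes of other cell types reported here, PTPRC, ALB, MYH2 and INS carried none, and APOA1 and DES had a peak in 1 library each, VPA replicate 3.

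The sequences at the acetylated starts are shown first, because acetylated and unacetylated starts of the same gene differed in composition. RefSeq promoter entries (GRCh38.p14, 250 bases before to 50 after a start) matched 8 of the 9 members with 16 entries, and HDAC5 had none. Each of these 8 genes had 1 entry inside an H3K27ac region found in all 6 libraries, and the other 8 entries, all of HDAC4 and HDAC9, lay in no H3K27ac region. The 250 upstream bases below are those of HDAC1 (chr1:32291833-32292082, plus strand), of the acetylated start of HDAC9 (chr7:18086575-18086824, plus strand) and of an internal HDAC9 start without H3K27ac (chr7:18495460-18495709, plus strand). None of them overlaps an annotated exon. Capitals mark the GC box GGGCGG and the CCAAT box CCAAT on either strand.
HDAC1 start: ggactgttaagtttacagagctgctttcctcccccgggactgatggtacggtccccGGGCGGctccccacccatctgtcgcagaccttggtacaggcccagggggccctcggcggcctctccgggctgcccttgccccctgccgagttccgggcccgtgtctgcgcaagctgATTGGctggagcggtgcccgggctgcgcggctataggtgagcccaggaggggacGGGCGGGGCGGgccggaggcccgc
HDAC9 acetylated start: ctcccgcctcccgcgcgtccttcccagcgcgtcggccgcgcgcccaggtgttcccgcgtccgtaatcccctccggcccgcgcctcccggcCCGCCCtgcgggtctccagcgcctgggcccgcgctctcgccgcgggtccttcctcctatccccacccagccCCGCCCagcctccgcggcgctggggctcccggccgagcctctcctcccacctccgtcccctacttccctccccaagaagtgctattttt
HDAC9 internal start: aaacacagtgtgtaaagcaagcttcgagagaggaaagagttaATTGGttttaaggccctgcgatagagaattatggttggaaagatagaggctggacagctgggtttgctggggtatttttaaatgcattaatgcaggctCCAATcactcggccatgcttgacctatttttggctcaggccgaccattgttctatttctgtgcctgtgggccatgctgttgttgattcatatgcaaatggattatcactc
The HDAC1 entry was 73.7% G and C over its 300 bases, with 28 CpG, 6 GC boxes and 1 CCAAT box, of which 3 GC boxes and the CCAAT box lie in the 250 bases printed. The acetylated HDAC9 entry was 75% G and C with 41 CpG and 3 GC boxes, 2 of them in the printed bases, whereas the internal one was 45.3% G and C with 5 CpG and 2 CCAAT boxes. Over 33725 autosomal promoters of the same table, the median was 58.7% G and C, 45.0% held a GC box, 34.4% a CCAAT box and 11.6% the TATA box TATAAA. A GC box was present in 6 of the 16 member entries, a CCAAT box in 5 and a TATA box in 0. A match of letters is a description of the sequence only.

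H3K27ac peaks at the 9 loci together numbered 22, 29 and 27 in CTRL replicates 1, 2 and 3, and 33, 38 and 37 in the VPA replicates, 26.0 ± 3.61 against 36.0 ± 2.65 (SD, n = 3 each). The covered length was 42.5 ± 7.60 kb in CTRL and 59.1 ± 11.7 kb in VPA. The mean peak number was higher in VPA at 7 of 9 loci and lower at 0, with a median difference of 1.00 peak, and over the 16034 loci with any H3K27ac peak the median difference was 0.333. The groups did not overlap at 2 of 9 loci, HDAC7 and HDAC9, both higher in VPA, where 12.1% of all loci were separated in this direction and 0.175% in the other. By covered length, 3 of 9 loci, HDAC1, HDAC5 and HDAC9, were higher without overlap, against 31.6% of all loci (0.187% lower). Against those shares the counts show nothing particular to the members. With 3 libraries against 3 the exact permutation test cannot give less than p = 0.1, which over all loci is an adjusted p of 0.812 for peak number and 0.315 for covered length, so no locus passed a test on its own. Higher enrichment in every cell and enrichment in more of the cells cannot be told apart in bulk ChIP-seq.

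**Figure D1:**
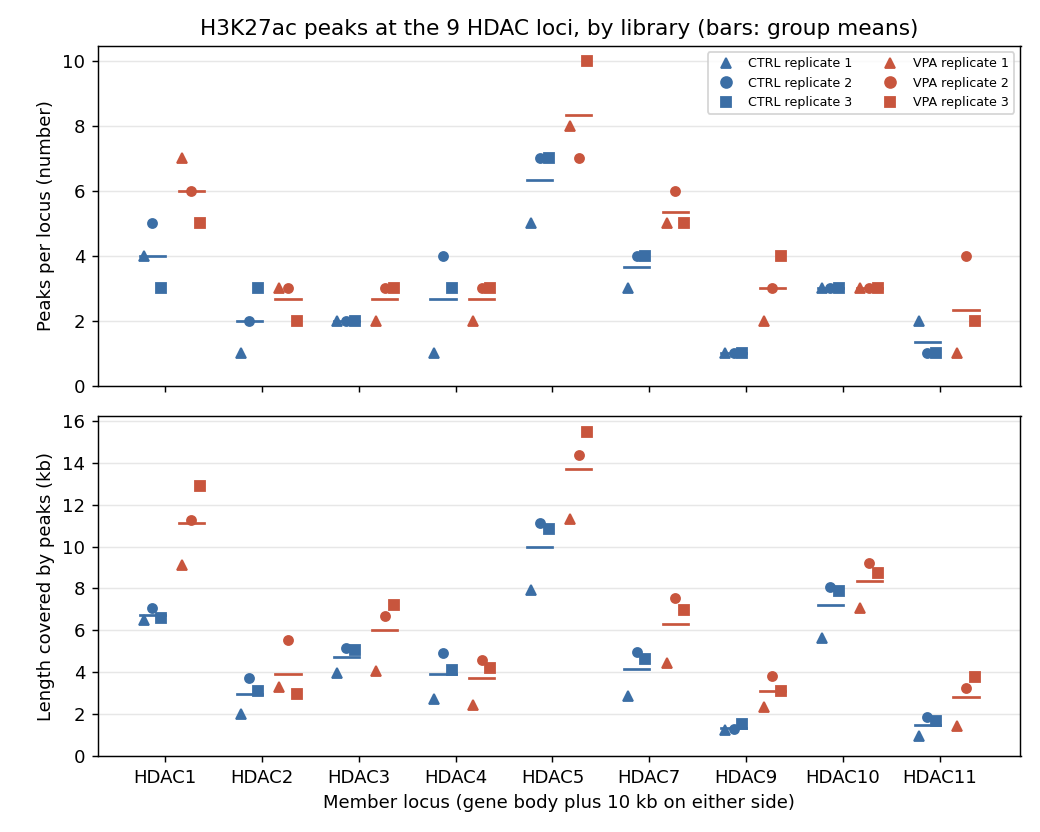
Number of H3K27ac peaks (top) and length they cover in kb (bottom) at each of the 9 member loci, with 1 point per library and bars at the group means (n = 3). At HDAC9 the CTRL libraries each hold 1 peak and the VPA libraries 2 to 4, and HDAC10 holds 3 in every library.

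Among class I genes, HDAC1, a catalytic subunit of the Sin3, NuRD and CoREST complexes (chr1:32292083-32333635, plus strand), gained covered length but its peak numbers overlapped. The CTRL replicates 1, 2 and 3 had 4, 5 and 3 peaks, and the VPA replicates had 7, 6 and 5. Covered length was 6.50, 7.06 and 6.59 kb in CTRL and 9.14, 11.3 and 12.9 kb in VPA. All VPA libraries lay above all CTRL libraries by this measure, with means of 6.72 ± 0.301 and 11.1 ± 1.89 kb (SD, n = 3 each, exact permutation p = 0.1, the smallest possible). The region at its gene start accounted for part of this, covering 2981, 2625 and 2794 bp in CTRL and 3517, 5283 and 4693 bp in VPA. At HDAC2, the close paralog of HDAC1 in the same complexes (chr6:113933028-114011308, minus strand), the CTRL replicates held 1, 2 and 3 peaks and the VPA replicates 3, 3 and 2, so that the groups overlapped. Its covered length was 2.95 ± 0.879 kb in CTRL and 3.94 ± 1.41 kb in VPA (SD, n = 3 each). At HDAC3, the catalytic subunit of NCoR and SMRT complexes (chr5:141620876-141636849, minus strand), they numbered 2 in each CTRL library and 2, 3 and 3 in VPA, also with overlap, and covered length was 4.73 ± 0.660 kb in CTRL and 6.001 ± 1.69 kb in VPA (SD, n = 3 each).

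Among class IIa genes the means were higher in VPA at HDAC5, HDAC7 and HDAC9, and differed at HDAC4 by less than the spread between libraries. HDAC9 (chr7:18086949-19002416, plus strand), the longest of the 9 genes at 915 kb, held 1 peak in each CTRL library and 2, 3 and 4 in the VPA replicates. Its covered length was 1.26, 1.31 and 1.52 kb in CTRL and 2.35, 3.81 and 3.11 kb in VPA (exact permutation p = 0.1, the smallest possible). Neither measure overlapped between groups. HDAC7 (chr12:47782722-47833132, minus strand) held 3, 4 and 4 peaks in the CTRL replicates, below the 5, 6 and 5 of the VPA replicates (exact p = 0.1), while its covered length of 2.89, 4.95 and 4.65 kb in CTRL and 4.44, 7.54 and 6.97 kb in VPA did overlap. HDAC5 (chr17:44076746-44123702, minus strand) held 5, 7 and 7 peaks in the CTRL replicates and 8, 7 and 10 in the VPA replicates, which overlapped, and had a covered length of 7.93, 11.1 and 10.8 kb in CTRL and 11.3, 14.4 and 15.5 kb in VPA, which did not (exact p = 0.1). HDAC4 (chr2:239048168-239401654, minus strand) was the only member with a lower mean covered length in VPA. Its CTRL replicates held 1, 4 and 3 peaks and its VPA replicates 2, 3 and 3, and the mean covered length was 3.93 ± 1.10 kb in CTRL and 3.75 ± 1.16 kb in VPA (SD, n = 3 each).

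HDAC10 (chr22:50245183-50251405, minus strand), the shortest gene at 6.22 kb, had 3 H3K27ac peaks in each of the 6 libraries, and these were the same 3 regions. Its covered length was 7.19 ± 1.35 kb in CTRL and 8.34 ± 1.13 kb in VPA (SD, n = 3 each), with overlap. HDAC11 (chr3:13479724-13506424, plus strand) held 2, 1 and 1 peaks in the CTRL replicates and 1, 4 and 2 in the VPA replicates, with overlap. Its covered length of 0.948, 1.88 and 1.68 kb in CTRL and 1.46, 3.24 and 3.78 kb in VPA also overlapped. With every list limited to its top 26299 peaks, the length of the shortest H3K27ac list, 0 of 9 loci were separated by peak number, and HDAC9 kept a difference of 0.333 peaks and HDAC7 of 0 peaks. The mean differences of the 9 loci then lay between -0.667 and 0.333 peaks. At this length 1.99% of all loci were separated upwards and 1.3% downwards. By covered length 21.4% were separated upwards and 0.547% downwards at equal length, HDAC1 and HDAC9 among the former with smaller differences of 2371 and 630 bp in place of 4385 and 1725 bp. Counted over the gene body alone, HDAC7 lost its separation in peak number (8.35% of all loci higher, 0.189% lower) and HDAC5 its separation in covered length (27% higher, 0.296% lower). With flanks of 50 kb, 5 of 9 loci were higher by peak number, where 23.5% of all loci were higher and 0.166% lower. Without replicate 1 in both groups, 4 loci were separated by peak number (HDAC3, HDAC7, HDAC9 and HDAC11), where 27.3% of all loci were higher and 1.89% lower, and 7 by covered length, where 77.2% were higher and 2.01% lower. Leaving out VPA replicate 1 alone also gave 7 by covered length, where 76.3% of all loci were higher and 0.239% lower.

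Acetylation at the start sites came next. The share of all genes with such a region was not computed, so the counts below show no trait particular to the members. The members have 10 to 31 annotated transcript starts each. An H3K27ac region found in all 6 libraries lay within 1 kb of the annotated gene start in 7 of 9 members. HDAC2 and HDAC7 had none there but had one at other annotated transcript starts, so that 9 of 9 members had an acetylated start when any transcript start counted. For HDAC2 this region (chr6:113967933-113972546) lay 40.4 kb downstream of the annotated gene start around 12 transcript starts, and for HDAC7 (chr12:47818382-47820965) it lay 13.4 kb downstream around 11. In 6 further regions of all 6 libraries the start belonged to a neighbour, MARCKSL1 at HDAC1, DIAPH1 at HDAC3, LSM12 and G6PC3 at HDAC5, and TUBGCP6 and MAPK12 at HDAC10. The start region of HDAC3 also held the start of RELL2, and peaks of the pair cannot be told apart.

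In fold enrichment, the HDAC2 start was highest on average and in 5 of 6 libraries, the exception being CTRL replicate 3, where HDAC4 was higher. It carried 15.9, 52.3 and 46.5 fold in CTRL replicates 1, 2 and 3 and 14.1, 34.0 and 43.9 in VPA. HDAC5 followed with 8.73, 41.1 and 31.6 in CTRL and 7.48, 27.2 and 29.0 in VPA, lower than HDAC2 in 6 of 6 libraries. HDAC4 (11.8, 26.2 and 55.4 in CTRL, 10.2, 19.5 and 28.1 in VPA), HDAC1 (9.59, 36.3 and 24.8, then 8.01, 19.7 and 29.4) and HDAC3 (14.0, 31.8 and 30.2, then 12.7, 25.3 and 17.7) could not be ordered against HDAC5 or each other, since neighbours in this order changed places between libraries. HDAC7 was lower than HDAC3 in 6 of 6 libraries. It was not lower than HDAC1 in CTRL replicate 3, with 24.87 fold at HDAC7 and 24.79 at HDAC1. HDAC10 (4.73, 15.6 and 16.03, then 4.52, 9.80 and 14.7), HDAC11 (3.55, 10.8 and 11.03, then 3.44, 17.1 and 13.1) and HDAC9 (5.27, 11.6 and 11.1, then 4.49, 9.75 and 16.7) were lowest by mean level in replicates 2 and 3, again without a fixed order. HDAC7 was not set apart from them. It lay above HDAC10 in 5 of 6 libraries and below HDAC11 in VPA replicate 2 (12.4 against 17.1 fold). In VPA replicate 3 HDAC7 was the lowest of all members (10.0 fold). In every member the CTRL and VPA libraries overlapped in fold enrichment, and replicate 1 of each group was the lowest. By summit fragment number over background coverage, replicate 1 was instead the highest of each group in every member. At HDAC2 this measure was 298, 219 and 210 in CTRL and 212, 133 and 146 in VPA.

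**Figure D2:**
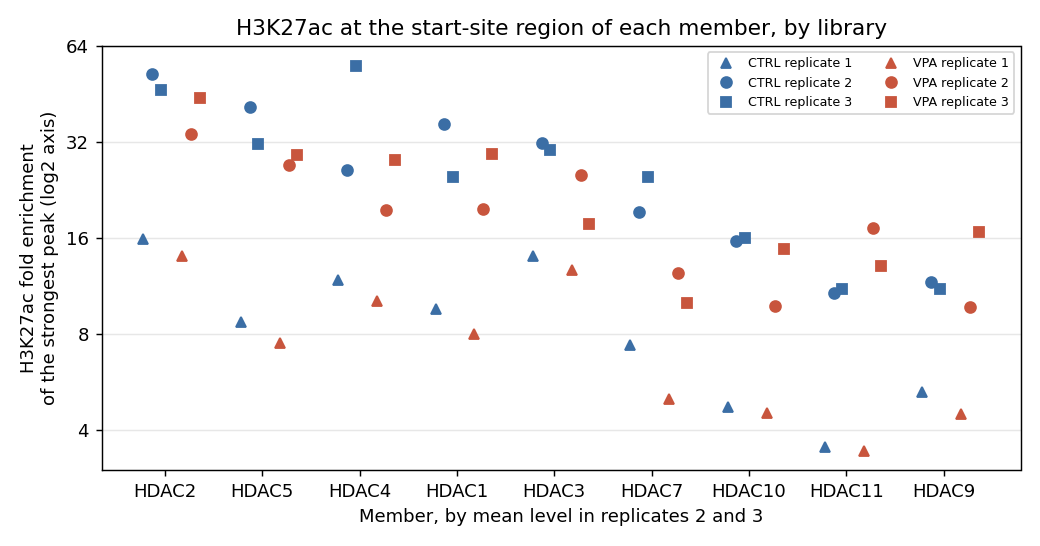
H3K27ac fold enrichment of the strongest peak at the start region of each member (log2 axis), 1 point per library, members ordered by their mean level in replicates 2 and 3. HDAC2 lies at the top and HDAC10, HDAC11 and HDAC9 at the bottom, and the replicate 1 libraries (triangles) are lowest for each member.

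The mean length of the start region was greater in VPA in 8 of 9 members. The libraries did not overlap at HDAC1 (2800 ± 178 bp in CTRL, 4498 ± 899 bp in VPA) and HDAC9 (1363 ± 138 bp in CTRL, 1853 ± 96.2 bp in VPA; SD, n = 3 each, exact permutation p = 0.1 for each, the smallest possible). Among 9422 regions at protein-coding gene starts found in all 6 libraries, 18.5% were longer in VPA without overlap and 0.0106% shorter. Without replicate 1, a comparison added after seeing the data, 7 of 9 members were longer without overlap (all but HDAC2 and HDAC4), where 67.9% of these regions were longer and 2.11% shorter. HDAC4 was the member whose start region was shorter on average, with 2992 ± 208 bp in CTRL and 2866 ± 377 bp in VPA.

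Fold enrichment was compared at regions found in all 6 libraries, using limma on log2 values over all 18407 such H3K27ac regions. Of these, 20 belonged to member loci. Taking the 6 libraries as independent, 0 of the 20 and 0 of all regions passed an adjusted p of 0.05, with 120 regions higher (0.652%) and 45 lower (0.244%) at an unadjusted p under 0.05. Same-numbered CTRL and VPA libraries deviated together for H3K27ac, so the fit with the replicate number as a block is given beside it. In that fit 9.21% of all regions fell and 5.14% rose, and 1 of the 20 member regions fell. This was the start region of HDAC7, which carried 7.40, 19.3 and 24.9 fold in CTRL replicates 1, 2 and 3 and 5.02, 12.4 and 10.0 fold in VPA, lower in 3 of 3 pairs. Its log2 difference was -0.83 ± 0.223 (SE, limma with a replicate block, adjusted p = 0.0250 over all regions). The call was kept without the replicate 1 pair (adjusted p = 0.0326) and without the replicate 2 pair (adjusted p = 0.0145) and was lost without the replicate 3 pair (limma, adjusted p = 0.188). The HDAC7 locus also had more H3K27ac peaks in VPA, but its 5 regions without a CTRL peak were each found in 1 library. As 9.21% of all regions fell in this fit, the lower summit is not a trait particular to HDAC7.

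The remaining 19 member regions did not pass in the blocked fit. The nearest was an internal transcript start of HDAC5 (chr17:44110589-44111978), with 1.91, 6.38 and 6.11 fold in CTRL and 3.02, 13.2 and 7.40 in VPA, higher in 3 of 3 pairs (log2 difference 0.66 ± 0.221, SE, limma with a replicate block, adjusted p = 0.0546). It passed when each library was also divided by its median (limma, adjusted p = 0.0388). At the other start regions the log2 differences were -0.30 for HDAC1, -0.29 for HDAC2, -0.41 for HDAC3, -0.54 for HDAC4, -0.31 for HDAC5, 0.04 for HDAC9, -0.29 for HDAC10 and 0.29 for HDAC11, with standard errors of 0.213 to 0.237 in the blocked fit. Enrichment at HDAC2, HDAC3, HDAC4, HDAC5 and HDAC10 was lower in 3 of 3 pairs without passing. The median over the 20 member regions was -0.29, beside -0.14 over all regions and -0.27 over regions at gene starts. The recovered fragment number over the summit, divided by the background coverage of its library, was also used in place of the fold enrichment. This moved the median of all regions to -0.28. In the blocked fit 12 member regions were then called lower and 1 higher, where 49.1% of all regions were lower and 12% higher. The pileup without the block called 1 member region higher and 2 lower (3.58% and 12.3% of all regions), the block with median centring 1 and 1 (6.87% and 6.08%), and the fit without replicate 1 none higher and 1 lower (2.94% and 3.52%).

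**Figure D3:**
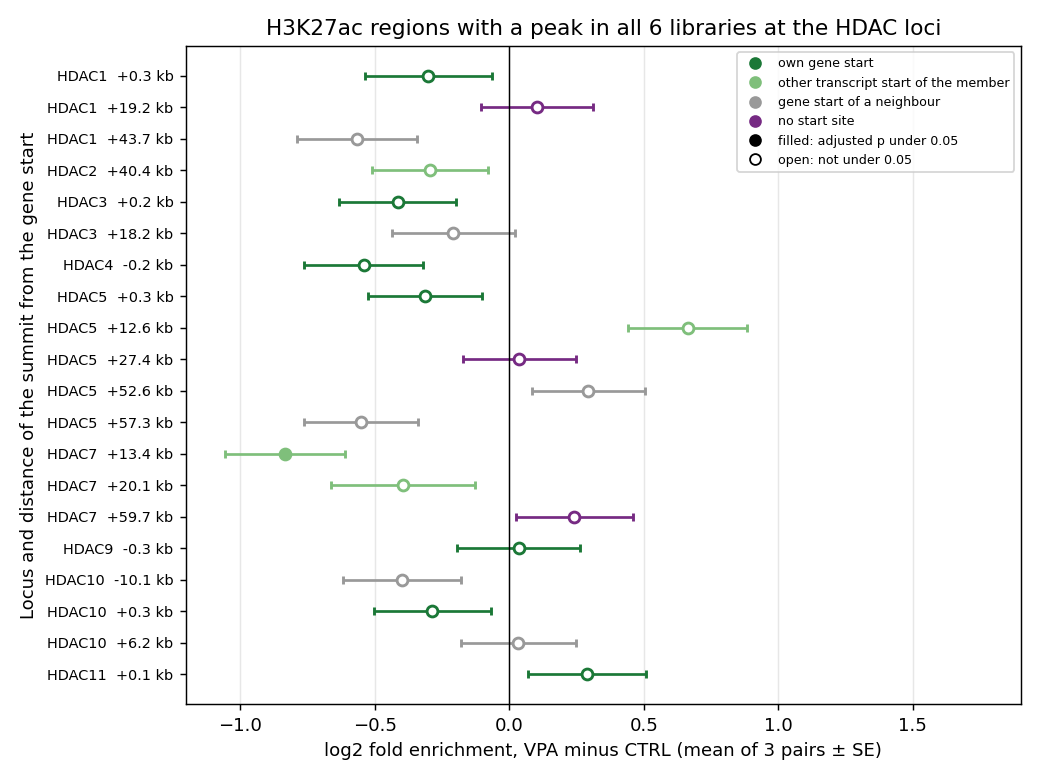
Difference in log2 fold enrichment, VPA minus CTRL, at the 20 member regions with an H3K27ac peak in all 6 libraries (points, mean of 3 pairs, bars are the SE of the blocked limma fit), labelled by locus and by distance from the gene start. The start region of HDAC7 at -0.83 is the only filled point (adjusted p under 0.05), and the internal HDAC5 start at 0.66 is the highest.

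Most member regions away from start sites were weak and found in some of the libraries. There were 35 such regions, with a median fold of 3.05, and 3 of them were found in all 6 libraries, among them 1 downstream of HDAC7 with up to 15.3 fold and 1 in an intron of HDAC5 with up to 14.03 fold. Of the 53 member regions, 23 had a peak in at least 1 VPA library and in no CTRL library, 43.4% against 39.4% of all H3K27ac regions, and 1 had the reverse, 1.89% against 5.20%. The 23 regions lay at no start site, had fold enrichments between 1.98 and 6.41, and were spread over all members but HDAC10. By contrast, regions at a start of a member or neighbour reached up to 67.4 fold with a median of 14.5. Just 1 member region was present in every VPA library and absent from every CTRL library, a pattern of 4.12% of all regions, and 0 member regions had the reverse (0.139% of all). Without replicate 1 the counts were 2 and 1, where 13% and 0.878% of all regions had these patterns. It lay in an intron of HDAC9 (chr7:18352709-18354486), 267 kb downstream of the gene start, with 3.42, 3.84 and 6.01 fold in VPA replicates 1, 2 and 3. The peaks of VPA replicates 1 and 3 did not overlap each other and were joined by the longer peak of replicate 2. The 150 bases around its strongest summit (chr7:18352847-18352996, plus strand) are given with each CpG in capitals, beside those of the HDAC7 start region that fell (chr12:47819604-47819753, plus strand).
HDAC9 intron, VPA only: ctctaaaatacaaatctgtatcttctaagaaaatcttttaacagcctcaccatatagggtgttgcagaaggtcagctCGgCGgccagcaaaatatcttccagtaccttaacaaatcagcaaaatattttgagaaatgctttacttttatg
HDAC7 start region: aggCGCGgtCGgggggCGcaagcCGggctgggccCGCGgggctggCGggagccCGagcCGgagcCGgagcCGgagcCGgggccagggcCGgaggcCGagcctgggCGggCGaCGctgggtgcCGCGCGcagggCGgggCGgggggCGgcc
The HDAC9 stretch is 36.0% G and C with 2 CpG, and the HDAC7 stretch 87.3% with 24. The HDAC9 region had the lowest share of G and C (35.3% over its length) of the 53 member regions, which had medians of 58.7% at start sites and 51.4% elsewhere. The HDAC9 region no longer met the criterion when lists were limited to equal length or when peaks had to cover at least 50% of the merged region. In VPA replicate 3 a further peak of 4.29 fold had its summit 268 kb downstream of the gene start.

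CTCF at these loci was compared next. Peaks at the 9 loci together numbered 47, 63 and 61 in CTRL replicates 1, 2 and 3 and 43, 54 and 57 in VPA, 57.0 ± 8.72 against 51.3 ± 7.37 (SD, n = 3 each). At equal list length 1 locus was higher by covered length, where 2.66% of all loci were higher and 2.19% lower (0.296% and 0.498% by number). At full list length, at 0 of 9 loci were the groups separated, by number or by covered length, where 0.39% of all loci were separated upwards and 0.875% downwards by number and 1.26% and 1.86% by length. HDAC4 and HDAC9, the longest genes, held 16 and 21 of the 74 CTCF regions. HDAC4 had 13, 14 and 14 in CTRL and 11, 14 and 12 in VPA. At HDAC7 the same 7 regions were found in all 6 libraries, and the number was 7 in every library except VPA replicate 1 with 8. HDAC5 had 6, 7 and 8 CTCF peaks in CTRL and 4, 10 and 6 in VPA, HDAC10 had 3, 6 and 4 and then 3, 3 and 4, HDAC2 had 2, 4 and 4 and then 3, 4 and 3, and HDAC3 had 2, 3 and 2 and then 2 in each VPA library, all with overlap. The counts at HDAC1 (1, 2 and 2 in both groups) and HDAC11 (3, 4 and 3 in both groups) were the same for each replicate number. Without replicate 1, 2.73% of all loci were higher and 7.9% lower by CTCF peak number, and 12.2% and 22.9% by covered length, beside 0 and 0 members by number and 0 and 1 by length.

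**Figure D4:**
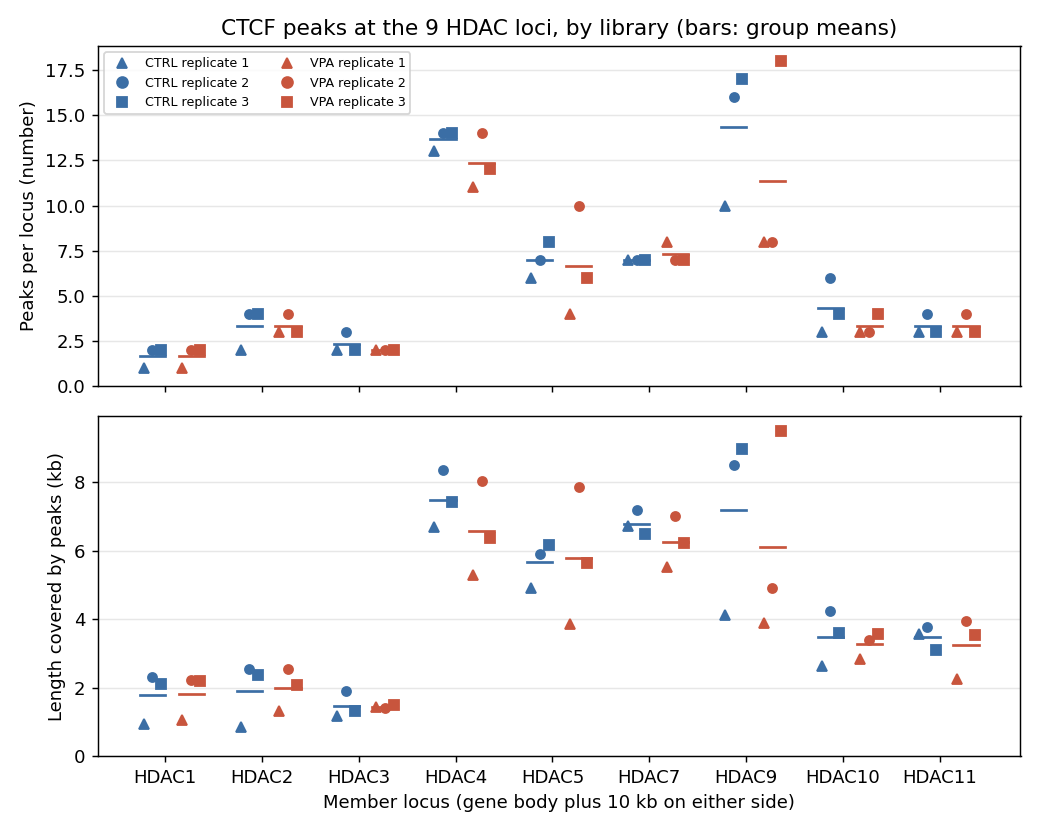
Number of CTCF peaks (top) and length they cover in kb (bottom) at each member locus, with 1 point per library and bars at the group means (n = 3). CTRL and VPA libraries overlap at each locus, and the spread is widest at HDAC9, where VPA replicates 1 and 2 hold 8 peaks and VPA replicate 3 holds 18.

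HDAC9 showed the widest spread between libraries of the same group. Its CTCF peaks numbered 10, 16 and 17 in CTRL and 8, 8 and 18 in VPA. Of its 21 CTCF regions, 2 were found in all 6 libraries, 9.52% against 39.7% of all CTCF regions. In 5 of the 21, a peak was found only in CTRL replicates 2 and 3 and VPA replicate 3, 23.8% against 4.16% of all regions, a pattern singled out after the values were seen. A further 4 were found in all 4 libraries of replicates 2 and 3 and in no replicate 1 library, where 12.3% of all regions were. These were not all weak, since the region at chr7:18215323-18215929 carried 24.3 and 25.5 fold in CTRL replicates 2 and 3 and 15.5 fold in VPA replicate 3. The region at chr7:18693277-18693931 carried 3.87, 51.5 and 55.0 fold in CTRL and 7.90 fold in VPA replicate 1 and 44.5 fold in VPA replicate 3, and had no peak in VPA replicate 2. That library lacked 8 regions of HDAC9 that the other 3 libraries of replicates 2 and 3 had.

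**Figure D5:**
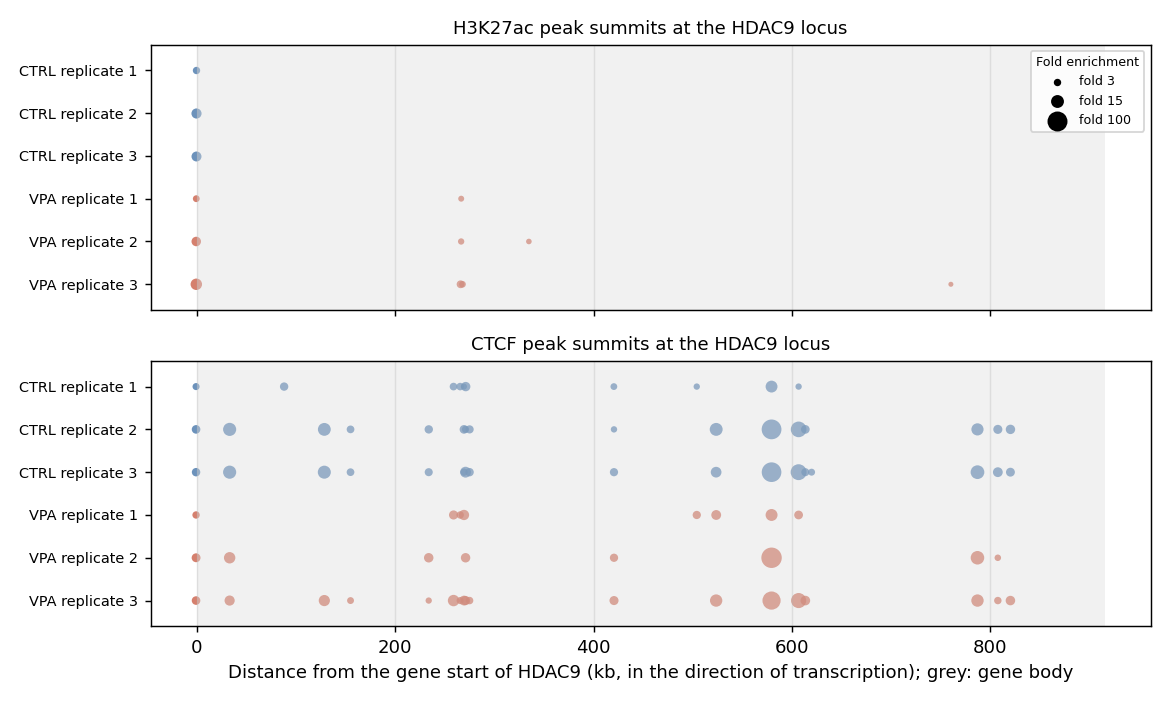
Peak summits at the HDAC9 locus in each of the 12 libraries, by distance from the gene start in kb along the gene (point size grows with fold enrichment, grey marks the gene body). In the CTRL lists H3K27ac lies at the gene start alone. VPA replicates 1, 2 and 3 have a further peak with its summit at 266.62, 266.56 and 265.97 kb, those of replicates 1 and 3 not overlapping. CTCF peaks are spread along the gene and are fewest in VPA replicates 1 and 2.

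The strongest CTCF region of each member differed in place. It was near the start of a neighbour at HDAC1 (MARCKSL1) and HDAC3 (DIAPH1), downstream of the gene at HDAC7 and HDAC10, and inside the gene at HDAC2, HDAC4, HDAC5, HDAC9 and HDAC11. At HDAC9 this region (chr7:18665894-18666762, 579 kb into the gene) carried 18.7, 153 and 148 fold in CTRL and 19.0, 181 and 100 fold in VPA. At HDAC3 it (chr5:141618830-141619723) carried 50.7, 109 and 119 fold in CTRL and 98.6, 149 and 96.5 fold in VPA. At HDAC4 it (chr2:239143498-239144552) carried 49.3, 55.8 and 31.2 fold in CTRL and 5.95, 42.9 and 35.5 fold in VPA, VPA replicate 1 being the low one. At HDAC2 it (chr6:113994662-113995453) carried 11.6, 122 and 113 fold in CTRL and 20.3, 62.2 and 84.3 fold in VPA, replicate 1 again being lowest in each group. At HDAC11 it (chr3:13499736-13500996) stayed between 51.4 and 64.7 fold in all 6 libraries, replicate 1 included. Among the 34 member CTCF regions found in all 6 libraries, 19 had a positive and 15 a negative log2 difference with a median of 0.02, beside -0.02 over all 27794 regions. No member region and no region at all passed limma at an adjusted p of 0.05, with 45 regions higher and 45 lower (0.162% each) at an unadjusted p under 0.05. In simulated data where same-numbered libraries shared a replicate level by construction, this fit recovered 0% of 4-fold changes and a fit with a replicate block 54%. The CTCF replicate numbers were not taken as pairs, so the 54% does not describe these data. Differences of that size and below can have been missed.

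A CTCF core motif, the letters CCA, AG and GGC in this order with 2 bases of any kind between them (both strands searched), lay within 100 bp of the strongest summit in 9 of the 74 member CTCF regions, 12.2% against 17.0% of all CTCF regions. Among regions found in all 6 libraries it was 6 of 34, 17.6% against 26.2%. The sites of the strongest HDAC9, HDAC7 and HDAC10 regions, of a further strong HDAC7 region and of a variable HDAC9 region are given below as 30 bases on the strand of the motif, with the motif in capitals.
HDAC9, chr7:18666305-18666334, minus strand: gtgctgttgCCACTAGAGGGCgctctgtct
HDAC7, chr12:47779470-47779499, minus strand: cagccacagCCACCAGAGGGCgctcccatc
HDAC7, chr12:47837768-47837797, minus strand: accacctggCCACCAGGGGGCaggtgtgcc
HDAC10, chr22:50241267-50241296, plus strand: cagacagggCCACTAGAGGGCtccttagtc
HDAC9, chr7:18215623-18215652, plus strand: catttggcaCCAAAAGGGGGCactgctctc
The first is at the region of 18.7 to 181 fold described above, 10 bp from its summit and opposite to the direction of HDAC9. The HDAC7 sites lie downstream and upstream of the gene, both in its direction, at regions of 57.3 and 54.8 mean fold. The last is at the HDAC9 region found only in CTRL replicates 2 and 3 and VPA replicate 3. HDAC1, HDAC3, HDAC4 and HDAC11 had no match in these windows.

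The 2 marks shared few places at the longest genes. Of the 74 CTCF regions, 19 overlapped H3K27ac in at least 2 of 3 CTRL libraries and 22 in at least 2 of 3 VPA libraries, while 50 overlapped none. The shares over all CTCF regions were not computed, so the counts of this paragraph show no trait particular to the members. HDAC4 and HDAC9 held 6 and 5 H3K27ac regions over their whole loci. H3K27ac peaks covered 34.4 to 46.5 Mb in the CTRL lists and 48.4 to 67.4 Mb in the VPA lists. At HDAC4, 15 of 16 CTCF regions and at HDAC9 20 of 21 overlapped none, whereas at HDAC10 5 of 7 overlapped H3K27ac in both groups.

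Genes of the complexes that contain these enzymes, of partners of the class IIa enzymes and of the NAD-dependent sirtuins were examined by the same peak number. Of 54 genes in 7 lists, 11 had more H3K27ac peaks in VPA without overlap and 0 had fewer, beside 12.1% and 0.175% of all loci, and for CTCF it was 0 in both directions. The CoREST list had 3 of 6, namely RCOR1 (its scaffold, 4 to 7 peaks in CTRL and 9 to 13 in VPA), KDM1A (a histone demethylase, 1 in each CTRL library and 2 to 3 in VPA) and PHF21A (10 to 11 and 12 to 14). The MiDAC list had 2 of 3, DNTTIP1 (2 in each CTRL library and 3 to 4 in VPA) and MIDEAS (6 to 7 and 8 to 10). The NuRD list had 2 of 11, RBBP4 (a histone chaperone, 3 to 5 and 6 to 7) and GATAD2B (6 to 9 and 13 to 16). In the Sin3 list 1 of 12 was separated, ARID4B, with the largest difference, 10 to 12 peaks in CTRL and 16 to 23 in VPA. The class IIa partners had 2 of 11, MEF2B (4 to 7 and 8 to 9) and PRKD2 (a kinase of class IIa enzymes, 2 to 3 and 4 to 6), the sirtuins 1 of 7, SIRT6 (1 in each CTRL library and 2 to 3 in VPA), and the NCoR and SMRT list 0 of 4. At equal list length 0 of the 54 were higher and 1 was lower (1.99% and 1.3% of all loci). Over the gene body alone 6 were higher (8.35% of all loci higher, 0.189% lower). Without VPA replicate 1 it was 19 higher (23.7% of all loci higher, 0.76% lower), and without replicate 1 it was 25 higher (27.3% higher, 1.89% lower).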

How the data were processed

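H3K27ac and CTCF ChIP-seq of HEK293T cells was analysed from the 12 deposited peak lists. The authors had aligned paired-end reads to hg38 with Bowtie2 and called peaks in each library separately with MACS (3.0.0a7 in the submitters' processing notes) at a q-value of 0.05. Whether inputs served as controls and how duplicates were treated is not given in the sources used here. The deposited lists hold, as the authors' peak caller gave them, a fold enrichment (ratio), a −log10 p-value, a −log10 q-value and a score (10 times the latter, within 1).

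Peaks of the 6 libraries of an antibody were merged into regions (at least 1 bp shared). The summit pileup was recovered from fold and p-value, whole within 0.05 fragments in 99.9975% to 100% of peaks. For comparisons it was divided by the background coverage of its library. Groups and replicate numbers came from the labels, which do not say whether replicates are separate cultures, so p-values measure the spread between these libraries. Loci were compared by exact two-sided permutation tests (3 against 3) and regions by limma 3.58.1 (R 4.3.3) on log2 fold enrichment with Benjamini-Hochberg adjustment over all regions, on tables built with Python 3.11.15. No pair of lists shared more than 0.0192% of identical intervals. For H3K27ac, deviations from the group means correlated between same-numbered libraries at 0.865, 0.585 and 0.591, over 0.1 in 3 of 3 pairs, so the numbers were taken as pairs on this ground from the data, although CTRL replicate 2 correlated slightly better with VPA replicate 3 (0.607) than with its own number. On simulated 4-fold changes in 200 of 18407 H3K27ac regions, the unblocked fit recovered 0% and the blocked fit 100% with 9 false calls. Same-numbered libraries shared a replicate level by construction in these simulations, which favours the blocked fit. Named were all members, their start regions, regions only in VPA or only in CTRL, each member's strongest CTCF region and partner genes whose peak numbers did not overlap. Members and lists were chosen with earlier results of these data known. A cell type marker is not reported here. Alternatives covered the q-value, list length, locus and overlap definition, scaling, filter, replicate block and omission of libraries.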

Additional observations from a re-analysis of the deposited data

How the results depend on the processing

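Limits first. With 3 libraries per group no locus can pass an exact test, and read depth is known only through the background coverage. The 23 member H3K27ac regions with a VPA peak and no CTRL peak were weak, at 1.98 to 6.41 fold. CTCF regions missing from some libraries were not all weak. Replicate 1 has a low fold enrichment over the local background. At the start region of every member its summit fragment number over background coverage was the highest of its group. At other member regions this did not always hold. The 9 loci and the length of the lists set what could be seen. The cause of the changes below was not tested. Equal list length left 0 member loci and 0 partner genes higher by H3K27ac peak number and 1 partner gene lower (1.99% and 1.3% of all loci). It also left 0 VPA-only regions, and 1 locus higher by CTCF covered length (2.66% of all loci). Gene bodies without flanks gave 1 locus and 6 partner genes higher by H3K27ac peak number, where 8.35% of all loci were higher. They gave 1 lower partner gene for CTCF, for which no share over all loci was computed. Flanks of 50 kb gave 5 loci for H3K27ac, where 23.5% of all loci were higher. Requiring peaks to cover 50% of a region left 0 VPA-only regions. Without replicate 1 the H3K27ac counts were 4 loci and 25 partner genes by number (27.3% of all loci), and 7 loci by length (77.2%). By length of the start region (added after seeing the data) it was 7 (67.9% of such regions). There were 2 VPA-only and 1 CTRL-only regions (13% and 0.878% of all regions). For CTCF it was 1 locus shorter (22.9% of all loci), 1 CTRL-only region, and 2 partner genes higher and 4 lower (2.73% and 7.9% of all loci).

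Leaving out each library in turn gave 3 to 7 loci by H3K27ac length (7 without VPA replicate 1, where 76.3% of all loci were higher). It gave 11 to 19 partner genes (19 without VPA replicate 1, where 23.7% of all loci were higher). There were 1 to 3 VPA-only regions (2 without CTRL replicate 2 or VPA replicate 1, 3 without VPA replicate 3) and 0 to 1 CTRL-only regions (1 without CTRL replicate 1). Other shares over all loci or regions were not computed for single omissions, so these counts cannot be set against them. For CTCF it gave 0 to 1 loci lower by number, 0 to 1 higher and 0 to 2 lower by length, 0 to 2 partner genes higher and 0 to 3 lower, 0 to 1 VPA-only and 0 to 2 CTRL-only regions, most often changed by omitting CTRL replicate 1 or VPA replicate 2.

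For H3K27ac fold enrichment, calls over all regions were 946 higher and 1695 lower with the replicate block, 659 and 2262 with summit pileup, and 666 and 798 without replicate 1. Chosen after seeing the data, the block with median centring gave 1264 and 1119, with summit pileup 2208 and 9034, and without the pairs 1, 2 and 3 in turn 524 and 1001, 928 and 1182, and 317 and 353. Member regions called were 1 lower with the block, with the block without replicate 1 or replicate 2, and without replicate 1, 1 higher and 1 lower with block and centring, 1 higher and 2 lower with pileup, and 1 higher and 12 lower with block and pileup. In the fit without the block, leaving out 1 library also unbalances replicate 1, whose fold enrichment is low, or breaks a pair. Log2 differences at start regions that were not called then ranged from -0.85 to 0.23 for HDAC1, -0.84 to 0.19 for HDAC2, -1.10 to 0.010 for HDAC4, -0.995 to 0.32 for HDAC5, -0.41 to 0.54 for HDAC9, -0.87 to 0.18 for HDAC10 and -0.25 to 0.998 for HDAC11. With whole pairs left out in the blocked fit, HDAC9 alone of these 7 turned sign. HDAC9 was also -0.20 with summit pileup, with or without the block, and -0.24 with the block without replicate 3. CTCF had 0 calls in each of these fits. Its replicate numbers were not taken as pairs, since same-numbered deviations correlated at 0.340, -0.0451 and 0.477, and CTRL replicate 2 did not correlate best with its own number. The motif count of 9 was the same within 50 bp of the summit.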
